A study of Mus musculus with 12 samples.

Results

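Vnn1 and the genes of coenzyme A synthesis were followed across 12 arrays of the mouse cell line C3H10T1/2. The members were 8 genes: Vnn1, Vnn3, Pank1, Pank2, Pank3, Ppcs, Ppcdc and Coasy. They were measured by 18 of the 45037 probe sets tested, and the table held 18193 genes in all. Vnn1 was picked for the gap of about 5 log2 units between siRNA arrays, so its siRNA values are given as a description and without a test. The other members were chosen for their place in the same pathway.

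C3H10T1/2 is an embryonic mesenchymal cell line that can form cartilage, bone, fat and muscle cells. The 12 arrays fell into 4 groups of 3. Cells received siRNA-140, which mimics miR-140, or siRNA-96 as its control, and in a separate experiment an LNA oligonucleotide that suppresses endogenous miR-140 (anti-miR-140) or one against miR-449 (anti-miR-449) as its control. All groups are transfected cells and no untransfected group was analysed here, so each difference joins the effects of 2 oligonucleotides. Nothing in the labels tells if the replicates came from different cultures, and p-values cover only the variation among these samples, which may be technical. Levels are log2 expression values made by RMA, in which 1 unit is a doubling.

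Pantetheine is a breakdown product of coenzyme A. Vanin-1, the enzyme encoded by Vnn1, sits on the outer face of the cell membrane and splits pantetheine into pantothenate (vitamin B5) and cysteamine. Pantothenate re-enters coenzyme A synthesis through the pantothenate kinases, and cysteamine is a thiol that can be oxidised to hypotaurine and taurine. Vnn1 is known as a target gene of the nuclear receptor PPAR-alpha in liver.

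The mature microRNAs after which the oligonucleotides are named are shown, with the seed (bases 2 to 8) in capitals. The sequences are those of RefSeq on GRCm38.p6. The labels give neither the oligonucleotide sequences nor the arm used, which for miR-140 may be miR-140-5p or miR-140-3p, so the sequence printed for miR-140 need not be that of the treatment. miR-449a-5p and miR-449c-5p share their seed, and the other seeds differ.
miR-140-3p (chr8:107551288-107551308, plus strand): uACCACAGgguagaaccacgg
miR-96-5p (chr6:30169506-30169528, minus strand): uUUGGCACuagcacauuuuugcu
miR-449a-5p (chr13:113037549-113037570, plus strand): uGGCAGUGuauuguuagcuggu
miR-449c-5p (chr13:113036008-113036028, plus strand): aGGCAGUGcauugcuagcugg

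Some arrays did not lie with their label. In Vnn1 and many other genes, siRNA-140 replicate 3 read like siRNA-96 replicates 2 and 3, and siRNA-96 replicate 1 read like siRNA-140 replicates 1 and 2, so results are given with and without these 2 arrays. Whether labels were exchanged cannot be settled from the data used here, and each difference of siRNA-140 minus siRNA-96 below is that of the arrays as labelled. The 12 measured mesenchymal markers were bright on every array, with a summed linear signal of 32560 to 34510 on siRNA-140 replicates 1 and 2 and siRNA-96 replicate 1, 40240 to 40620 on the other 3 siRNA arrays, and 43630 to 45680 on the anti-miR arrays. Summed signal was 141 to 169 and 204 to 238 for 10 epithelial markers on the siRNA and anti-miR arrays, 146 to 182 for 9 kidney tubule and hepatocyte markers, 119 to 154 for 8 blood cell markers and 65 to 82 for 6 endothelial markers. RMA gives no zeros, so an absent transcript has no defined level here. The control signal of 18S ribosomal RNA was 10.47 on siRNA-96 replicate 1, 10.23 on anti-miR-449 replicate 1, 7.86 on siRNA-96 replicate 3 and 5.40 to 6.75 on the others. In bulk RNA, fewer cells of a type and less RNA per cell cannot be told apart.

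Vnn1 lay at 3 separate levels over the 12 arrays. Its brighter probe set (1418486_at) read 10.37, 10.51 and 5.52 in siRNA-140 replicates 1, 2 and 3. It read 10.04, 5.66 and 5.27 in siRNA-96 replicates 1, 2 and 3. Each label thus held arrays at both extremes, and the siRNA groups overlapped fully. It read 6.99, 7.73 and 7.08 with anti-miR-140. The anti-miR-449 arrays gave 7.18, 7.67 and 7.52. All 6 anti-miR arrays therefore lay between the high and the low siRNA arrays, and the 2 anti-miR groups overlapped.

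The lowest of the 3 high siRNA arrays stood 2.31 log2 units (4.96-fold) above the highest anti-miR array. The lowest anti-miR array stood 1.33 units (2.51-fold) above the highest of the 3 low siRNA arrays. Both gaps cross the experiments and are not corrected for the higher medians of the anti-miR arrays, given below. Treatment and experiment cannot be told apart in them. The dimmer probe set (1447845_s_at) gave the same 3 levels: 8.03 to 8.34 on the high siRNA arrays, 4.55 to 5.61 on the anti-miR arrays and 2.84 to 3.04 on the low siRNA arrays. Only 4 of the 45037 probe sets had a wider range over the siRNA arrays than the brighter Vnn1 probe set, and 2 had a wider range than the dimmer one. The median range over all probe sets was 0.43. Vnn1 was picked for its gap between siRNA arrays, so its place by range follows from that choice.

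The 3 levels were also seen in ranks within an array. The share of probe sets below it gives the place of Vnn1 within an array. The values were already normalized by RMA, so these ranks are no independent check of the levels. The brighter probe set ranked above 96.92% to 97.74% of all probe sets on the 3 high siRNA arrays. It ranked above 75.71% to 82.01% on the anti-miR arrays and 63.64% to 66.61% on the low siRNA arrays. Medians over all probe sets were 3.95 to 4.02 on the siRNA arrays and 4.32 to 4.38 on the anti-miR arrays.

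**Figure D1:**
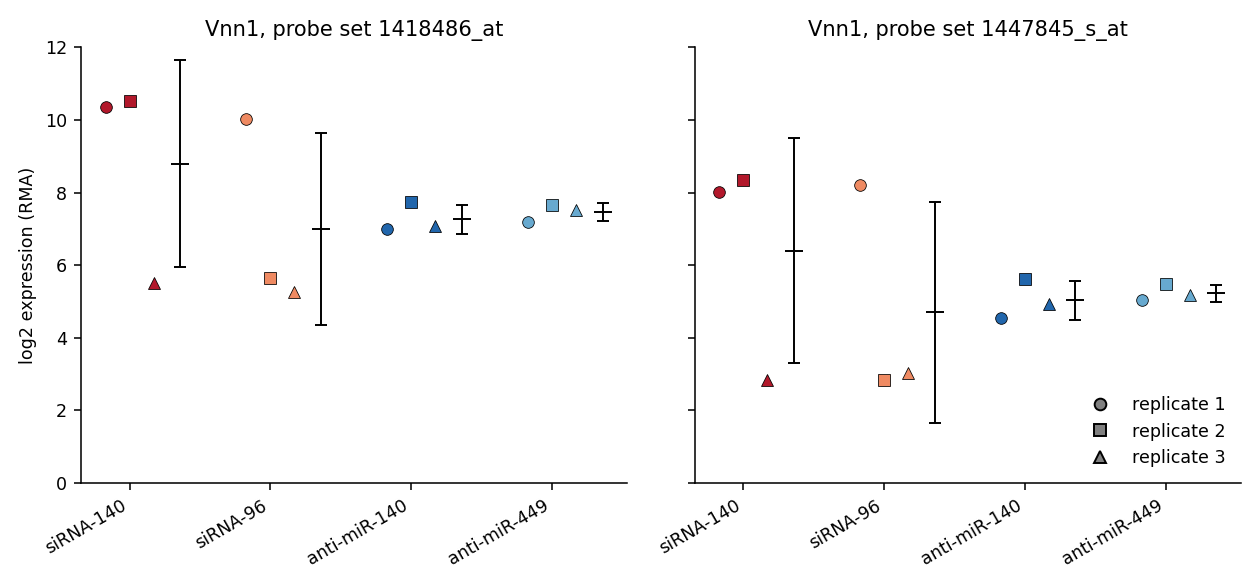
Level of Vnn1 at its 2 probe sets (log2 expression, y axis) on each of the 12 arrays, by group, with the group mean and SD (n = 3) beside the points. At 1418486_at, 3 siRNA arrays lie at 10.04 to 10.51 and 3 at 5.27 to 5.66, with the 6 anti-miR arrays between them at 6.99 to 7.73.

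By label, the mean level of Vnn1 was 8.80 ± 2.84 (SD, n = 3) with siRNA-140, 7.46 ± 0.25 with anti-miR-449, 7.27 ± 0.40 with anti-miR-140 and 6.99 ± 2.65 with siRNA-96 (n = 3 each). No neighbours in this order differed beyond their spread. The mean difference of siRNA-140 minus siRNA-96 was 1.81 log2 units. With 1 siRNA array left out it ran from 0.95 (without siRNA-96 replicate 3) to 3.45 (without siRNA-140 replicate 3). It was 0.95 without siRNA-140 replicate 2, 1.02 without siRNA-140 replicate 1, 1.15 without siRNA-96 replicate 2 and 3.34 without siRNA-96 replicate 1. Without both siRNA-140 replicate 3 and siRNA-96 replicate 1 it was 4.97.

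The anti-miR arrays had no part in the choice of Vnn1. There the difference of anti-miR-140 minus anti-miR-449 was -0.19 ± 0.20 (SE; 95% interval -0.64 to 0.26) in a limma fit of these 6 arrays alone (adjusted p = 0.986). In the fit of all 12 arrays the wide spread of the siRNA arrays enlarged the error to 1.23 (interval -2.84 to 2.46; adjusted p = 1). The 6-array interval holds no fall of more than 0.64 and no rise of more than 0.26 log2 units.

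Vnn1 also varied more than most genes among the anti-miR arrays, without regard to label. Its range there was 0.74 at the brighter and 1.06 at the dimmer probe set, where the median over all probe sets was 0.31. Only 704 and 38 of 45037 probe sets, respectively, had a wider range. The highest level was in anti-miR-140 replicate 2 and the lowest in anti-miR-140 replicate 1 at both probe sets. The probe sets tracked each other with r = 0.9483 over these 6 arrays, which share RNA, array and normalization, so this is a description.

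Vnn3 encodes a second vanin and is the gene next to Vnn1 on the chromosome (RefSeq gene order, GRCm38.p6). It showed none of the 3 levels. Its probe set read 4.35, 4.26 and 4.09 under siRNA-140, against 4.15, 4.27 and 4.09 under siRNA-96. It read 4.04, 3.90 and 4.10 under anti-miR-140, against 4.07, 4.17 and 4.46 under anti-miR-449. The groups overlapped in both experiments. The difference was 0.06 ± 0.12 (SE; interval -0.19 to 0.31) for siRNA-140 and -0.22 ± 0.12 (interval -0.47 to 0.03) for anti-miR-140. The deposited values hold no detection calls, and the probe set lay near the middle of each array, at 44.22% to 54.52% of all probe sets. Whether Vnn3 was above background is therefore not known.

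The measured genes around Vnn1 had far smaller ranges than Vnn1, although those of Enpp3, Eya4 and Ccn2 were above the median of 0.43 over all probe sets. Vnn1 was picked for its siRNA gap, so this contrast in size follows from the choice and says nothing about the locus. Of the 5 nearest measured genes on each side, Vnn3 included, none had a range over the siRNA arrays above 0.89, against 5.24 for Vnn1. On one side these were Vnn3, the vesicular amine transporter gene Slc18b1 (range 0.21), Eya4 (0.73), Tcf21 (0.40) and Tbpl1 (0.40). On the other they were the trace amine receptor gene Taar1 (0.29), the syntaxin gene Stx7 (0.34), Moxd1 (0.21), Ccn2 (0.67), which encodes connective tissue growth factor, and Enpp3 (0.89), an ectoenzyme that can cleave nucleotides. Eya4, Ccn2 and Enpp3 were lowest on the 3 arrays on which Vnn1 was highest, and Tbpl1, Stx7 and Moxd1 were highest there. The others were mixed. Of all genes, 12.3% were lowest and 16.6% highest on those arrays.

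The pantothenate kinases catalyse the first and controlling step of coenzyme A synthesis. Their 9 probe sets did not pass the test in either comparison. Pank1, whose brightest probe set is 1418715_at, read 7.13, 7.44 and 7.12 under siRNA-140, against 7.09, 7.07 and 6.85 under siRNA-96. These groups did not overlap, although they were only 0.03 apart. The difference was 0.23 ± 0.13 (SE; interval -0.06 to 0.51; limma adjusted p = 0.88). It was 0.09 ± 0.13 for anti-miR-140 minus anti-miR-449. A second Pank1 probe set (1431028_a_at) read 6.93, 6.91 and 7.10 on the 3 arrays with high Vnn1 (siRNA-140 replicates 1 and 2, siRNA-96 replicate 1). It read 6.73, 6.75 and 6.70 on the other 3 siRNA arrays.

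Pank2 encodes another pantothenate kinase. Its brightest probe set (1431948_a_at) read 7.80, 8.03 and 7.86 under siRNA-140, against 7.90, 7.82 and 7.69 under siRNA-96. It read 8.03, 7.95 and 8.04 under anti-miR-140, against 8.10, 8.08 and 8.05 under anti-miR-449. Only the anti-miR groups did not overlap, and they were 0.01 apart. The differences were 0.09 ± 0.09 and -0.07 ± 0.09 (SE), and neither passed.

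Pank3, a cytosolic kinase, had the smallest p of the members that could be tested. Its dimmer probe set (1426259_at) read 6.30, 6.50 and 6.05 under siRNA-140, against 6.15, 6.03 and 5.58 under siRNA-96, and the groups overlapped. The difference was 0.36 ± 0.15 (SE; interval 0.04 to 0.68), with an unadjusted limma p of 0.0284 and an adjusted p of 0.88. The brighter probe set (1433613_at) gave 0.18 ± 0.09 (interval -0.01 to 0.36). With anti-miR-140 these differences were 0.11 ± 0.15 and -0.03 ± 0.09. At the dimmer probe set, the 3 highest siRNA arrays were again siRNA-140 replicates 1 and 2 and siRNA-96 replicate 1.

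Ppcs joins cysteine to phosphopantothenate. Its probe set (1448722_s_at) read 6.19, 6.53 and 5.94 under siRNA-140, against 6.45, 5.94 and 5.85 under siRNA-96. The 3 highest values were on the arrays with high Vnn1, and each label held both high and low arrays. The difference by label was 0.14 ± 0.17 (SE; interval -0.23 to 0.51). With anti-miR-140 it read 6.36, 6.31 and 6.44 against 6.46, 6.44 and 6.12 with anti-miR-449, a difference of 0.03 ± 0.17. One further probe set carries the symbols of Ppcs and a predicted gene, and was not assigned to either.

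Ppcdc removes the carboxyl group of that cysteine. Its brightest probe set (1424335_at) read 5.60, 5.79 and 5.86 under siRNA-140, against 5.75, 5.90 and 5.77 under siRNA-96, a difference of -0.06 ± 0.10 (SE). A second probe set (1424336_at) read 4.31, 4.58 and 4.80 under siRNA-140, against 4.27, 4.80 and 4.91 under siRNA-96. Here the order was turned, with the 3 arrays of high Vnn1 lowest. Of the 18 member probe sets, 5 were lower on every siRNA array than on every anti-miR array: the 3 of Ppcdc, Pank3 at 1433613_at and Coasy at 1423701_at. This is below the 40.1% of all probe sets, while 0.75% of all and 0 members were higher on every siRNA array. After each array was centred on its median, 2 of the 18, both of Ppcdc, stayed lower, against 6.34% of all probe sets, and Vnn3 and Pank1 (1431028_a_at) were above every anti-miR array, against 10% of all. The experiments share no control group and may have been normalized apart, so treatment and experiment cannot be told apart.

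Coasy encodes the enzyme of the last steps of coenzyme A synthesis. Its brighter probe set (1423701_at) read 7.09, 7.41 and 7.27 under siRNA-140, against 7.39, 7.35 and 7.27 under siRNA-96, a difference of -0.08 ± 0.10 (SE; interval -0.30 to 0.14). It read 7.47, 7.68 and 7.53 under anti-miR-140, against 7.76, 7.67 and 7.63 under anti-miR-449, a difference of -0.13 ± 0.10 (interval -0.35 to 0.09). Its siRNA range of 0.32 was below the median of all probe sets.

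**Figure D2:**
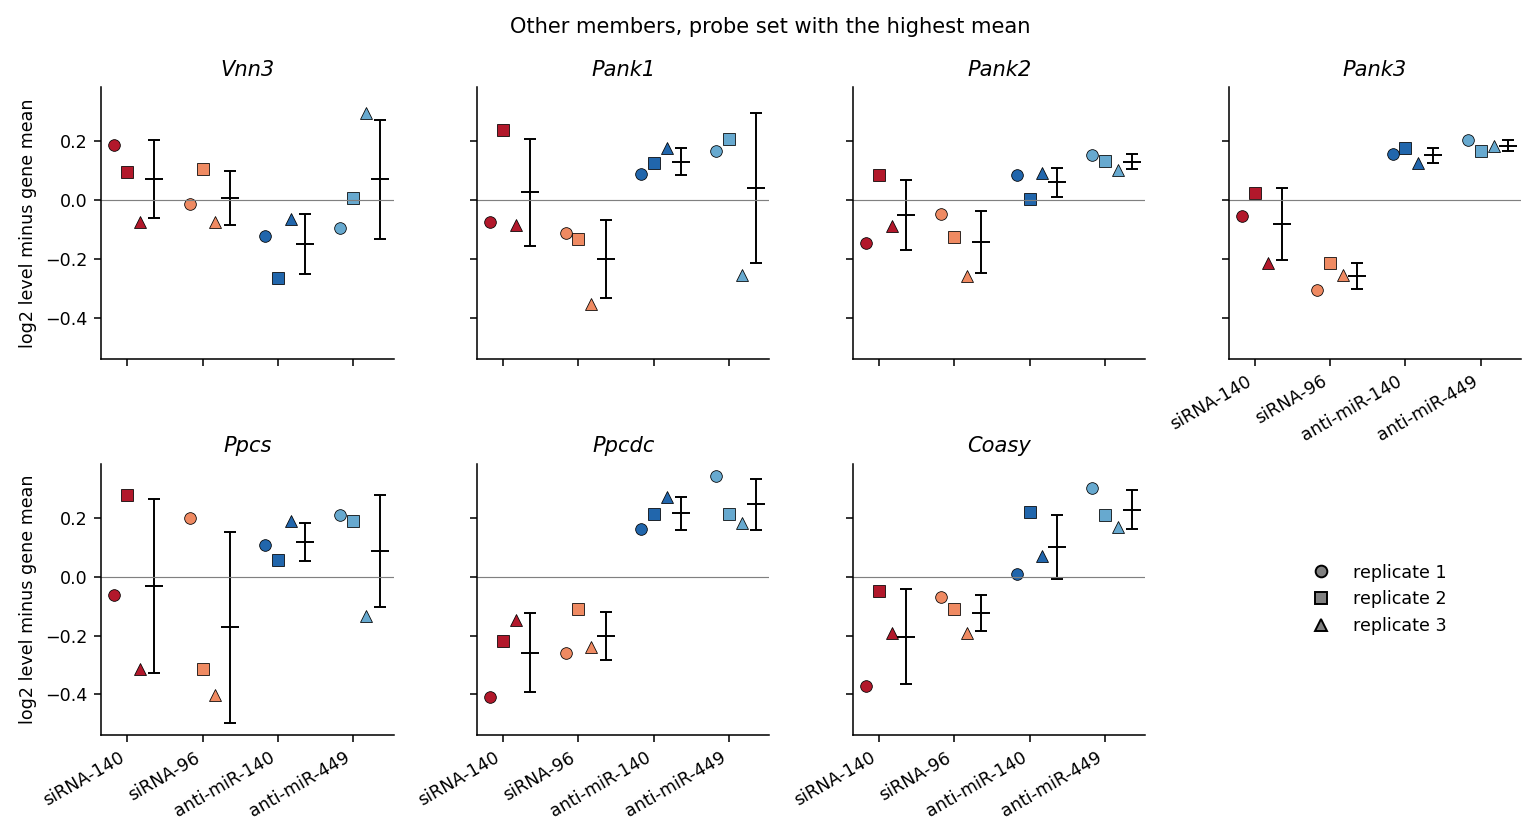
Level of the 7 members other than Vnn1 on each of the 12 arrays, as log2 expression minus the gene's mean over all arrays (y axis), by group, with the group mean and SD (n = 3) beside the points. Over the siRNA arrays the range is at most 0.68 log2 units, that of Ppcs, in which siRNA-96 replicate 1 and siRNA-140 replicate 2 lie highest among the siRNA arrays.

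With the groups as labelled, limma called 0 of 45037 probe sets (0%) in the siRNA comparison and 0 (0%) in the anti-miR comparison. At an unadjusted p under 0.05 these were 5.09% and 2.27% of all probe sets. Among the 18 member probe sets they were 1, that of Pank3, and 0. Fits of the 6 arrays of either experiment alone also called 0, with 2.25% (siRNA) and 4.77% (anti-miR) of all probe sets and 0 of the 18 at an unadjusted p under 0.05. The groups did not overlap at 1 of the 18 in either comparison, against 6.1% and 8.4% of all probe sets. The difference between the 2 comparisons was also tested and called 0 probe sets (2.94% at an unadjusted p). Over the 16 member probe sets outside Vnn1, the siRNA difference ran from -0.18 to 0.36.

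**Figure D3:**
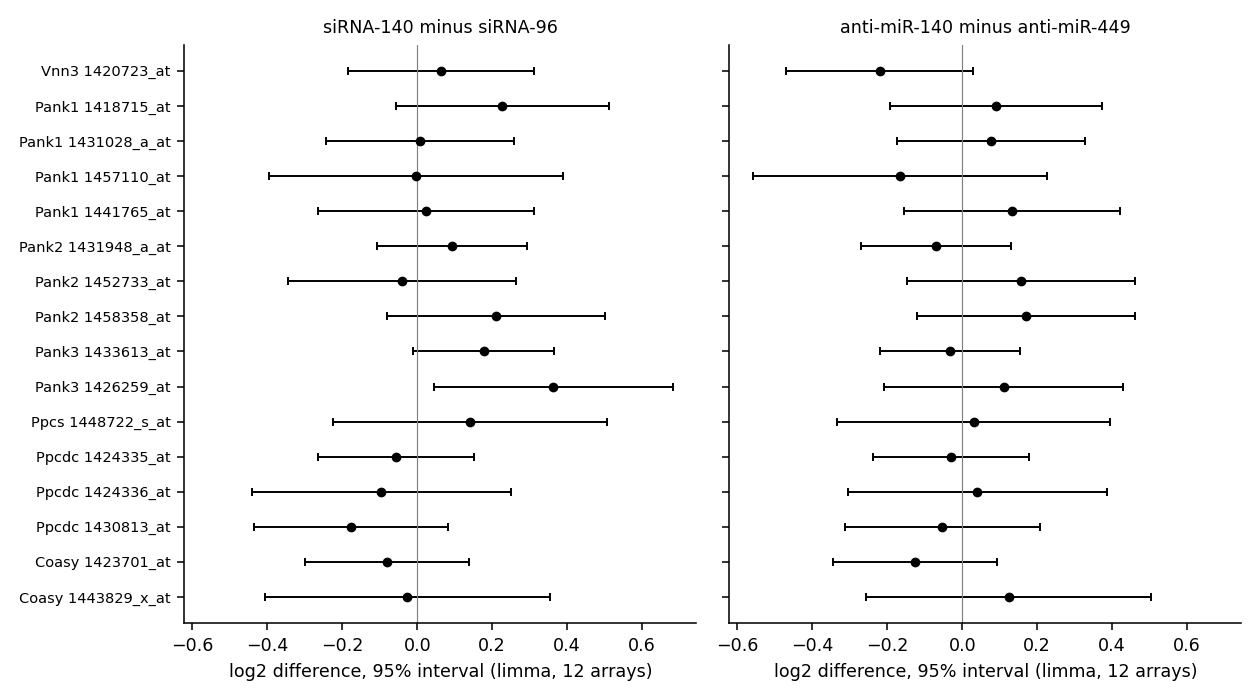
Log2 differences (x axis) of the 16 member probe sets outside Vnn1, with 95% intervals from the limma fit of all 12 arrays, for siRNA-140 minus siRNA-96 (left) and anti-miR-140 minus anti-miR-449 (right). All intervals hold 0 except that of Pank3 at 1426259_at on the left (0.04 to 0.68), which did not pass after adjustment.

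Leaving out the 2 arrays that lay with the other label, the 10-array fit called 3 of the 18 member probe sets and 8.98% of all, and 6 of the 18 and 20.5% of all had an unadjusted p under 0.05. The 3 were both Vnn1 probe sets (4.97 and 5.24) and Pank3 at 1426259_at (0.60 ± 0.15, SE). The calls of Vnn1 are no test, since it was picked for its gap between siRNA arrays. Ppcs gave 0.46 ± 0.14 and Ppcdc at 1424336_at -0.41 ± 0.13, and neither passed (adjusted p = 0.0618 and 0.0666). These 2 arrays were left out after their values were seen, and Vnn1 was chosen on the same arrays, so nothing is read from this count.

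The order of the siRNA arrays in Vnn1 was shared in part by other members. On siRNA-140 replicates 1 and 2 and siRNA-96 replicate 1, 3 of the 16 member probe sets outside Vnn1 were highest: Pank1 (1431028_a_at), Pank3 (1426259_at) and Ppcs. A further 2 were lowest there, Ppcdc (1424336_at) and Pank2 (1452733_at), and 11 were mixed. Among all probe sets 14.4% were highest and 10.2% lowest on those arrays, so the members' share of 5 in 16 lies near the 24.5% of the whole table. The size differed: these 5 had siRNA ranges of 0.40 to 0.92, against 5.24 and 5.50 in Vnn1, which was picked for its gap.

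Lists of neighbouring pathways were described by the brightest probe set of each gene. With the groups as labelled, none of their genes passed the test in either comparison. Median differences for siRNA-140 were 0.08 over 10 genes of coenzyme A transport, degradation and transfer, -0.01 over 15 genes of cysteamine, taurine and glutathione, 0.03 over 13 acyl-CoA thioesterases, 0.07 over 13 acyl-CoA synthetases and 0.00 over 22 PPAR receptors and reported targets, beside 0.03 over all 18193 genes. For anti-miR-140 these medians were 0.00, 0.06, -0.02, 0.00 and -0.01, beside 0.00 over all genes.

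Few of these genes had groups that did not overlap. With siRNA-140 they were Acsl6 (-0.16 ± 0.09, SE), an acyl-CoA synthetase gene, and Creb3l3 (0.17 ± 0.09), a transcription factor gene of fasting liver. With anti-miR-140 they were Fmo1 (-0.28 ± 0.12), which encodes a flavin monooxygenase that oxidises hypotaurine, and the glutathione-degrading enzyme gene Chac1 (-0.05 ± 0.10). Ehhadh (0.27 ± 0.12), of peroxisomal fatty acid oxidation, and Ucp3 (-0.36 ± 0.15), a mitochondrial carrier gene, were the others. In all genes 5.8% and 7.72% had groups without overlap in the 2 comparisons.

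The genes of cysteamine, taurine and glutathione were set against the order of the siRNA arrays in Vnn1, and those named here were picked after their values were seen. Of the 15 measured, 5 were highest, 3 lowest and 7 mixed on the 3 arrays with high Vnn1, where 16.6% of all genes were highest and 12.3% lowest. The mixed genes were Csad, Fmo1, Chac1, Ggt5, Ggt7, Gpx1 and Gpx4, most of which also belong to glutathione use and breakdown. The 5 serve glutathione supply and recycling: Gclc and Gclm, the subunits of the rate-limiting synthesis enzyme, Gss, the synthetase of the second step, Gsr, which reduces oxidised glutathione, and Slc7a11, the cystine importer.

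Gclm read 10.79, 11.06 and 10.37 in siRNA-140 replicates 1 to 3 and 10.65, 10.27 and 10.25 in siRNA-96 replicates 1 to 3. Gss read 7.72, 7.86 and 7.23 under siRNA-140, against 7.72, 7.32 and 7.24 under siRNA-96. Slc7a11 read 6.08, 6.47 and 5.91 against 6.20, 5.90 and 5.82. In all 3 genes the labels overlapped. The anti-miR arrays read 10.71 to 10.95 for Gclm, 7.93 to 8.12 for Gss and 6.34 to 6.61 for Slc7a11.

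The 3 genes that were lowest with high Vnn1 belong to cysteamine oxidation and taurine. Ado, which encodes the dioxygenase that turns cysteamine into hypotaurine, read 8.83, 9.11 and 9.45 under siRNA-140, against 8.83, 9.43 and 9.36 under siRNA-96. Cdo1, which encodes cysteine dioxygenase, read 5.63, 5.76 and 6.33 against 5.33, 6.33 and 6.10. Slc6a6, the taurine transporter gene, read 9.69, 9.91 and 10.59 against 9.71, 10.64 and 10.55. The anti-miR arrays read 9.51 to 9.68 for Ado, 6.06 to 6.50 for Cdo1 and 10.38 to 10.51 for Slc6a6. Csad, the decarboxylase gene of taurine synthesis, was mixed (7.16 to 7.51 on the siRNA arrays). Of the 12 mesenchymal markers, 6 were lowest on the 3 arrays with high Vnn1 (Pdgfra, Pdgfrb, Vcam1, Col1a1, Col1a2 and Col3a1), beside 12.3% of all genes. Only 1, Prrx1, was highest there, beside 16.6% of all genes. The part of these markers in the values above was not tested.

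**Figure D4:**
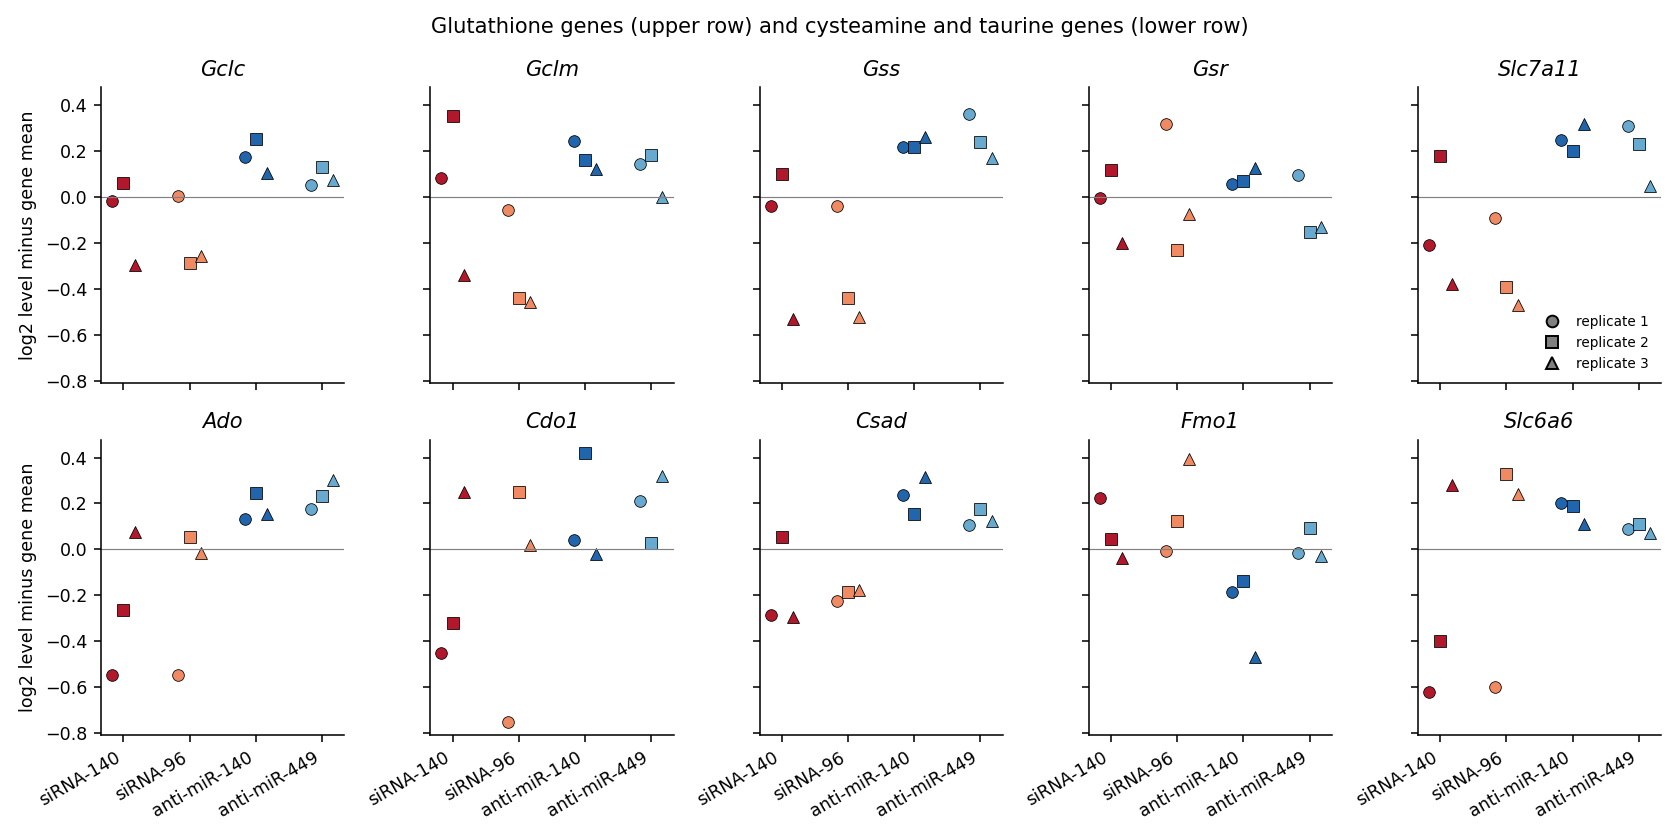
Levels of 5 glutathione genes (upper row) and 5 cysteamine and taurine genes (lower row) on each of the 12 arrays, as log2 expression minus the gene's mean (y axis), by group. In the upper row siRNA-140 replicates 1 and 2 and siRNA-96 replicate 1 are the highest siRNA arrays, and in Ado, Cdo1 and Slc6a6 they are the lowest. The upper row was picked after the values were seen, and the mixed genes Chac1, Ggt5, Ggt7, Gpx1 and Gpx4 are not shown.

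Carriers of coenzyme A into mitochondria also ran both ways. The genes named in this paragraph were likewise picked after their values were seen. Slc25a42, which encodes a mitochondrial coenzyme A transporter, read 6.65, 6.73 and 6.04 under siRNA-140, against 6.59, 6.01 and 6.36 under siRNA-96, and was highest with high Vnn1. Slc25a16, a related carrier gene, read 5.38, 5.27 and 6.20 against 4.84, 6.17 and 6.01, and was lowest there. Of the coenzyme A-cleaving Nudix hydrolase genes, Nudt19 was highest there (7.65, 7.77 and 7.46 against 7.72, 7.44 and 7.41), while Nudt7 and Nudt8 were mixed. Slc5a6, the gene of the vitamin transporter that takes up pantothenate, read 4.18 to 4.58 on the siRNA arrays and was mixed, as was Pank4 (6.93 to 7.22). In all, 4 of 10 genes of this list followed the order of Vnn1 in either direction, beside 28.9% of all genes.

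Among the 22 PPAR receptors and reported targets, 7 were highest and 2 lowest on the arrays with high Vnn1, where 16.6% of all genes were highest and 12.3% lowest. The genes named in this paragraph were picked after their values were seen, and a link of Vnn1 to PPAR was not tested. Plin2, a lipid droplet coat gene, read 10.79, 10.98 and 10.20 under siRNA-140, against 10.75, 10.20 and 10.27 under siRNA-96. Pdk4, a kinase gene that restrains glucose oxidation, read 8.29, 7.68 and 7.33 against 7.97, 7.41 and 7.31, and the receptor gene Ppard 7.81, 8.16 and 7.35 against 7.80, 7.39 and 7.51. Ppara itself read 3.12 to 3.55 on the siRNA arrays and 3.57 to 3.94 on the anti-miR arrays, in mixed order. The other genes highest there were Fgf21, Angptl4, Acadl and Slc25a20, and Ehhadh and Acadm were lowest. Of the acyl-CoA thioesterase genes 3 of 13 followed the order of Vnn1, among them Acot7, and of the acyl-CoA synthetase genes 3 of 13, among them Acsl4. Both shares lie below the 28.9% of all genes.

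The genes most like Vnn1 were ranked by Pearson's r with its brighter probe set over the 12 arrays, each centred on its median, among 156 named genes with a range of at least 2 log2 units. The arrays fall into clusters and share labelling and normalization, so r orders the genes and is given without a p. The genes named reached this range through the siRNA arrays on which Vnn1 was picked. Mal, for example, read 4.30 to 7.53 there and 6.64 to 6.96 on the anti-miR arrays. Likeness over the siRNA arrays thus follows in part from the choice of Vnn1 and of the range. The 8 most alike were Itgb4 (r = 0.98), a laminin receptor gene, the IGF binding protein gene Igfbp4 (0.97), the transcription factor gene Mitf (0.96), Dynap (0.95), the mesothelin gene Msln (0.93), the tetraspanin gene Tspan15 (0.89), Rabgap1l (0.88) and the membrane raft gene Mal (0.88). The 4 most unlike were Dtna (-0.97), Rmnd5a (-0.96), Isoc1 (-0.95) and Pdk1 (-0.95), a pyruvate dehydrogenase kinase gene.

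Over the 6 anti-miR arrays alone, r with Vnn1 was 0.88 for Igfbp4, 0.87 for Mal, 0.82 for Rabgap1l and 0.82 for Itgb4. It was 0.60 for Tspan15, 0.39 for Dynap, 0.04 for Msln and -0.001 for Mitf. These values were not set against those of all genes. Of the 4 unlike genes, Pdk1 (0.84) and Rmnd5a (0.50) turned sign, while Dtna (-0.49) and Isoc1 (-0.11) kept it. On these arrays Pdk1 read only 6.80 to 6.95 and Rmnd5a 7.25 to 7.37, so no reversal is read from their r. Itgb4 had the same 3 levels as Vnn1, with 7.13 to 7.43 on the high siRNA arrays, 6.14 to 6.71 on the anti-miR arrays and 4.95 to 5.42 on the low ones. Dynap differed in that its anti-miR arrays, at 2.96 to 3.69, lay nearer to its low siRNA arrays (2.49 to 2.99) than to its high ones (6.11 to 6.36).

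**Figure D5:**
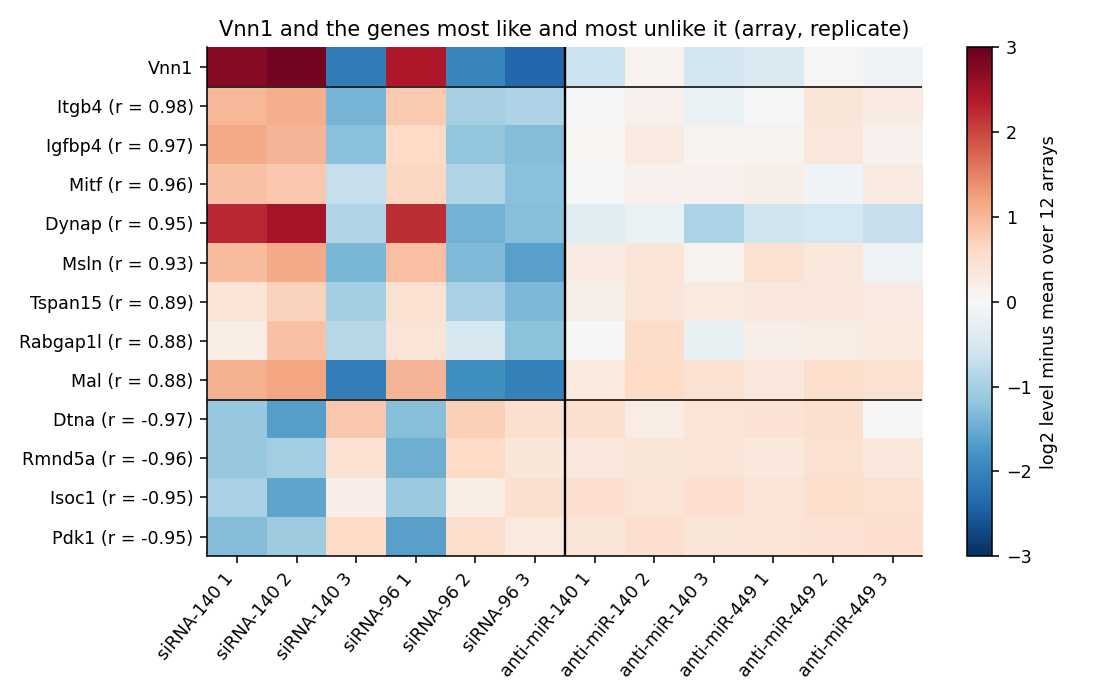
Log2 level minus the gene's mean over the 12 arrays (colour) for Vnn1, the 8 genes most like it and the 4 most unlike it (rows, with r over the 12 arrays), by array (columns, labelled by group and replicate). siRNA-140 replicates 1 and 2 and siRNA-96 replicate 1 are red for Vnn1 and the 8 genes and blue for the 4. The anti-miR arrays are right of the line.

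Promoter windows of RefSeq (GRCm38.p6), from 250 bases before to 50 after a gene's start, were at hand for 6 of the 8 members in 9 windows, of Vnn3, Pank1, Pank2, Pank3, Ppcs and Ppcdc. They were searched on both strands for AGGTCA, the half-site bound by nuclear receptors such as PPAR, and for the direct repeat, which is AGGTCA, any 1 base and AGGTCA again, and so contains it. The half-site was found in 2 of the 9 windows and in 16.3% of all 32851 windows, and the repeat in none of the 9 and in 0.0396% of all. The stretches around both half-sites, capitals marking the motif, are shown as the only matches among the 9 windows. The windows of Vnn3, Pank1, Pank2 and Pank3 held no match, and no window was at hand for Vnn1 itself or for Coasy.
Ppcs (chr4:119422627-119422656, minus strand): ggtggccggtatAGGTCAaaaacaaccatt
Ppcdc (chr9:57439692-57439721, minus strand): gcgtgcgtgttgAGGTCAtaggacgacctg
These matches are letters in a window and were not tested as binding sites.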

How the data were processed

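RNA from 12 samples was measured on Affymetrix arrays. The authors deposited RMA output on a log2 scale, according to the labels (per the submitters' processing notes). The version of RMA, and whether both experiments were normalized together, are not given in the sources used here. RMA values are compressed at the dim end. Of 45101 probe sets, 64 array controls were left out. Symbols came from the platform annotation: 34945 probe sets had 1 symbol, 932 several and 9160 none, and genes were named only from those with 1. Named list genes are those without overlap between groups, at the probe set with the highest mean, plus others said to be picked later. limma 3.58.1 (R 4.3.3) estimated 1 mean per group from the 12 arrays for each probe set, followed by eBayes, with Benjamini-Hochberg adjustment over 45037 probe sets, a threshold of 0.05 and 95% intervals. The script was tested on simulated data. The number of arrays limits precision. Members, lists and tests were chosen with earlier results of these data known.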

Additional observations from a re-analysis of the deposited data

How the results depend on the processing

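Counts of probe sets called for siRNA-140 against siRNA-96 stayed at 0 in fits of 6 arrays, with array weights, with an intensity trend, after quantile normalization or median centring, among brighter probe sets and with 1 probe set per gene. They ranged from 0 to 36 with each array left out, with 36 without siRNA-96 replicate 1 and 25 without siRNA-96 replicate 2. Chosen after seeing the data, the fit of 10 arrays called 4043 and moved the Vnn1 difference from 1.81 to 4.97. Of these 4043, 3 were members, 2 of them of Vnn1, whose calls are no test. The fit without the 2 arrays of highest 18S signal, also chosen after seeing the data, called 16. For the difference between the comparisons, 0 became 1985 and 1 in these fits, and 0 to 1 with each array left out. The cause was not tested. Anti-miR counts were 0 throughout. With the replicate number as a block (replicate block) the counts were also 0. Deviations of same-numbered siRNA arrays correlated at 0.41, -0.241 and 0.439, and of anti-miR arrays at -0.0137, 0.103 and -0.0316. The siRNA values differed in sign between replicate numbers. They include the 2 arrays that lay with the other label, so they cannot tell whether the numbers pair the siRNA samples. With the block, the SE of the Vnn1 siRNA difference was 0.70, against 1.23 without it. Of 352 recomputed differences at the brightest probe set of each member, 8 changed direction and 1, the Vnn1 value of the 10-array fit, moved by more than the replicate spread. Outside Vnn1, which is given without a test, none of these crossed the threshold, while the dimmer Pank3 probe set did in the 10-array fit. In the anti-miR comparison Ppcdc turned from -0.03 to 0.018 without the 2 arrays of high 18S signal. The other 7 reversals came with 1 array left out, over ranges of -0.015 to 0.325 (Ppcs), -0.112 to 0.018 (Ppcdc) and -0.16 to 0.0033 (Coasy) for siRNA, and -0.057 to 0.173 (Pank1), -0.08 to 0.09 (Ppcs) and -0.062 to 0.018 (Ppcdc) for anti-miR. Dim probe sets such as that of Vnn3 lack detection calls, so small differences there are not resolved.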
